A study of Mus musculus with 26 samples.

Results

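Among 21 mouse livers on CDAHFD, 6 libraries gave a larger part of their reads to the mitochondrial genome than the other 15. CDAHFD is a diet high in fat that supplies L-amino acids in place of protein and leaves out choline, and it is used to bring on steatohepatitis. The share was the percent of a library's estimated counts that fell in the 37 genes whose symbol starts with mt-. The 6 high livers were chosen by this measured share, out of 21 CDAHFD livers and 26 livers in the whole series: a fixed limit between 10.5% and 11.2% splits them from the 15 low livers. The classes are not groups of the study, and the share that made them is given below as a description with no test.

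The mitochondrial genome is a small circle of DNA held in many copies in each mitochondrion. It holds 13 protein-coding genes, 2 rRNA genes and the tRNA genes. Both strands are transcribed by Polrmt with Tfam as long precursors, which are cut, largely at the tRNAs, into rRNAs and mRNAs. The mRNAs of the mitochondrial genome encode core subunits of complexes I, III and IV and of ATP synthase. All other subunits, all of complex II and every protein of mitochondrial transcription and translation come from nuclear genes. Hepatocytes are rich in mitochondria, which in liver carry fatty acid oxidation, ketone body formation and the first steps of the urea cycle.

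The study asked how loss of Mtarc1, which encodes the mitochondrial amidoxime-reducing component 1 of the outer mitochondrial membrane, acts on steatotic liver. Whole liver was sequenced from Mtarc1 homozygous knockout mice on CDAHFD (8 libraries), Mtarc1 heterozygous knockout mice on CDAHFD (7), wildtype mice on CDAHFD (6) and wildtype mice on normal chow (5), with CDAHFD fed for 2 weeks. No knockout on chow is among the samples, and the labels do not say that each numbered sample is a separate animal, so p-values here measure the spread between these samples. Total estimated counts ran from 21.7 to 27.3 M in the high livers and from 19.7 to 29.9 M in the low livers. Alb, the main plasma protein of hepatocytes, was at 45760 counts per 1000000 nuclear counts or above in all 21, as in liver.

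The 6 high shares were 13.01% in wildtype sample 1, 11.96% in wildtype sample 2, 11.6% in homozygous sample 7, 11.5% in wildtype sample 5, 11.5% in heterozygous sample 4 and 11.2% in homozygous sample 4. The low livers ran from 6.24% to 10.5% with a median of 8.23%. Just inside the threshold stood homozygous sample 4 at 11.2%, and just outside it homozygous sample 1 at 10.5% and then heterozygous sample 5 at 9.32%. The mean was 11.8% ± 0.641 in the high livers (SD, n = 6), 8.04% ± 1.12 in the low livers (SD, n = 15) and 13.1% ± 2.98 in the chow livers (SD, n = 5). Counting only the 13 protein-coding mt- genes picked the same 6 libraries, with 10.5% in the lowest of them and 9.615% in the highest of the others.

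High livers were found in every genotype on CDAHFD: 2 of 8 homozygous, 1 of 7 heterozygous and 3 of 6 wildtype. The share averaged 9.29% ± 1.64 in homozygous livers (SD, n = 8), 8.08% ± 1.85 in heterozygous livers (SD, n = 7) and 10.1% ± 2.33 in wildtype livers (SD, n = 6). The ranges of the 3 genotypes overlap. The library names fall into numbers above and below 10000, and 4 of 13 livers numbered above and 2 of 8 numbered below were high.

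**Figure D1:**
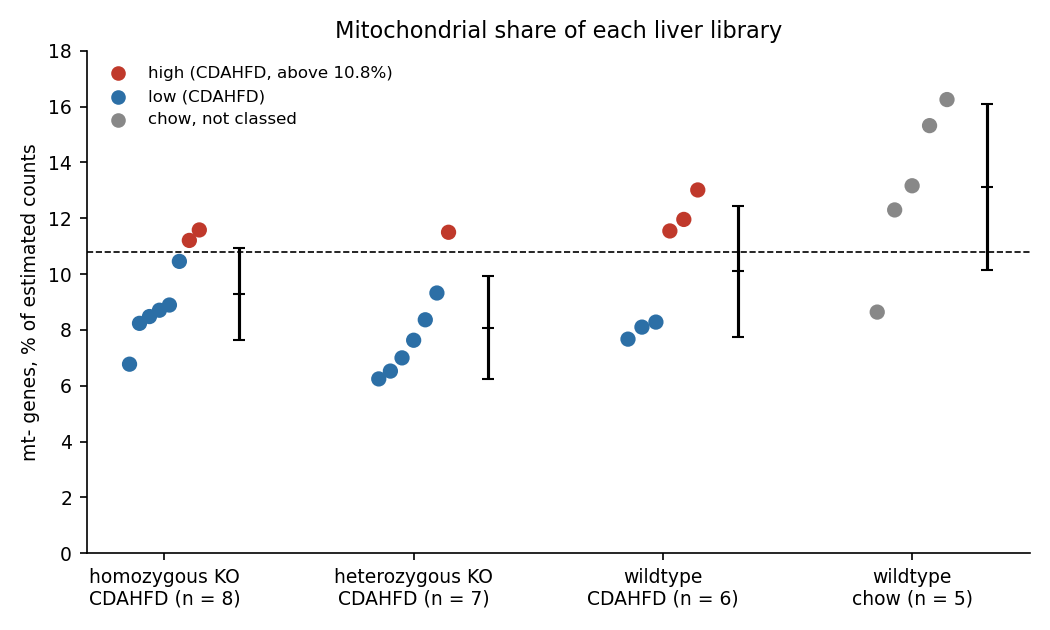
Percent of each library's estimated counts in mt- genes, by genotype and diet. Each point is a library, the black mark and bar are the group's mean and SD, and the dashed line is the limit between the classes; the 6 red high livers lie in all 3 CDAHFD genotypes, and 4 of the 5 chow livers also lie above the line.

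The 15 mt- genes that averaged at least 1 CPM, counts per 1000000 of all counts, were each higher on average in the high livers, by 1.29 to 1.65 times. These values made the classes and carry no test. mt-Co1, the catalytic subunit of complex IV and the most abundant of them, had 32521 to 37944 CPM in the 6 high livers (median 34556) and 18896 to 28616 CPM in the 15 low livers (median 24083). mt-Co2, which takes electrons from cytochrome c, had 8797 to 10988 CPM in the high livers (median 9852) and 3916 to 8138 CPM in the low livers (median 6854). For mt-Co1 and mt-Co2 the classes did not overlap. The 12S and 16S rRNAs mt-Rnr1 and mt-Rnr2 were 1.64 and 1.65 times as abundant in the high livers, and 2 and 3 of the 15 low livers reached the lowest high liver.

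Of the complex I subunits, mt-Nd1 to mt-Nd6 ran from 1.43 times (mt-Nd3 and mt-Nd5) to 1.53 times (mt-Nd6), with mt-Nd4l at 1.39 times. mt-Nd6 is encoded on the opposite strand from the other 12 protein-coding genes. mt-Cytb of complex III was at 1.42 times and mt-Atp6 of ATP synthase at 1.55 times. mt-Atp8 and mt-Nd4l separated the classes least: 10 and 9 of the 15 low livers stood at or above the lowest high liver. The mix within the mitochondrial reads was close between classes: mt-Co1 made up 29.4% ± 0.561 of the mt- counts in the high livers (SD, n = 6) and 29.9% ± 1.64 in the low livers (SD, n = 15). Both rRNAs together made up 7.40% ± 1.21 in the high livers and 6.58% ± 1.09 in the low livers. The 22 tRNAs were near 0 in every library, the usual case for RNA-seq libraries of longer RNA.

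The reading frames of mt-Atp8 and mt-Nd4l run into those of their neighbours, so reads from the shared bases fit both genes; how far this bears on their values was not tested. The last 43 bases of mt-Atp8 in the GENCODE M21 transcripts are also the first 43 of mt-Atp6, and the capitals mark the start codon of mt-Atp6.
mt-Atp8 and mt-Atp6 shared bases: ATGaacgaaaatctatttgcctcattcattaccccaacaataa
mt-Nd4l and mt-Nd4 share 7 bases in the same way.

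**Figure D2:**
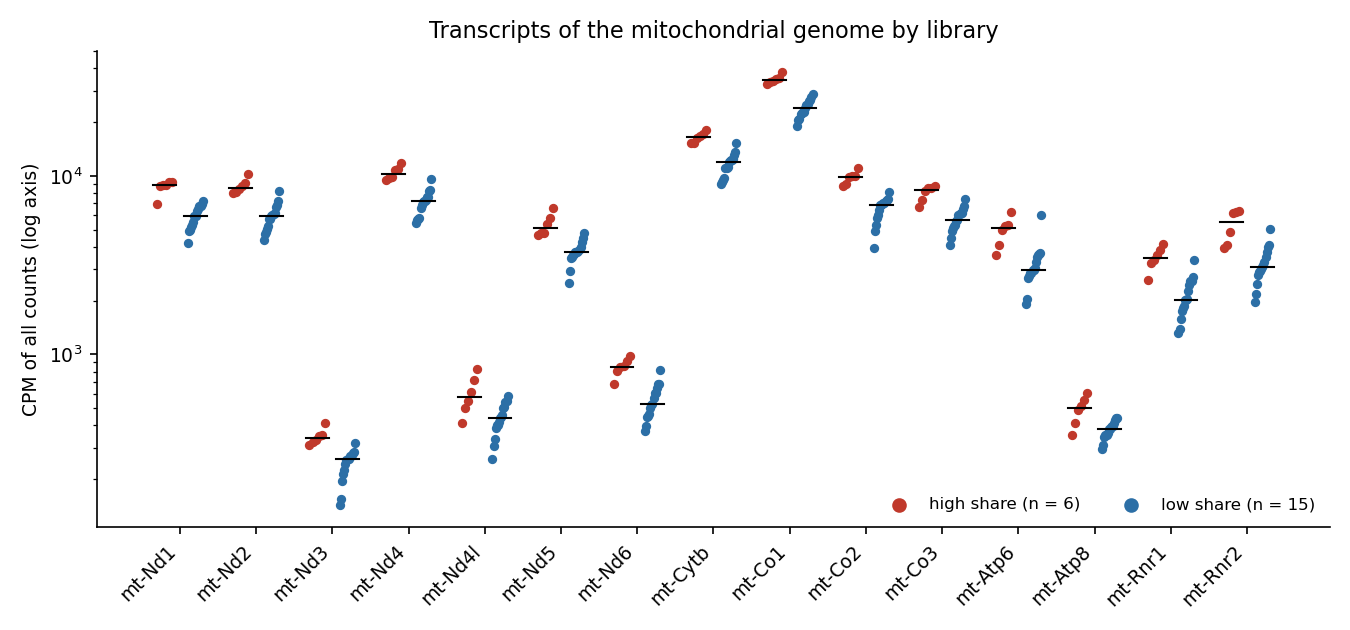
CPM of all counts (log axis) of the 15 mt- genes above 1 CPM on average, with the 6 high livers in red to the left of the 15 low livers in blue. Points are libraries and black lines are medians; mt-Co1 and mt-Co2 separate the classes without overlap, and mt-Atp8 and mt-Nd4l overlap most.

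Nuclear genes were then compared between high and low livers with the mt- genes left out of the library sizes and genotype as a covariate. At an adjusted p under 0.05 (edgeR quasi-likelihood test, Benjamini-Hochberg), 4304 of 16717 genes (25.7%) were called. Of these, 1854 (11.1%) were higher and 2450 (14.7%) lower in the high livers. At least a 2-fold difference was reached by 195 of the higher and 63 of the lower genes. In 124 genes (0.742%) all 6 high livers stood above all 15 low livers, and in 317 genes (1.9%) all 6 stood below. Without heterozygous sample 4, the only high liver of its genotype, 2784 genes were called, 1110 higher and 1674 lower, and 2683 of them were among the 4304.

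The same contrast was run within parts of the samples. It called 1748 of 16369 genes (10.7%) in the wildtype livers alone (3 high, 3 low) and 1473 of 17053 (8.64%) in the libraries numbered above 10000 (4 high, 9 low). It called 1 of 17064 genes (0.00586%) in the libraries numbered below 10000 (2 high, 6 low), with 3023 at an unadjusted p under 0.05. In the homozygous livers alone (2 high, 6 low) edgeR called 0 of 16915, with 2190 at an unadjusted p under 0.05. With the spread estimated over all 21 libraries, the contrast called 1280 of 16717 genes (7.66%) within wildtype and 150 (0.897%) within homozygous livers. In these edgeR fits Ddit3 had an adjusted p of 0.0104 within homozygous livers and 0.0702 within wildtype livers. A test of the difference itself, the homozygous minus the wildtype contrast, called 0 of 16717 genes with edgeR, with 657 at an unadjusted p under 0.05 and a lowest adjusted p of 0.683.

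The make-up of the nuclear counts also differed between the classes. Malat1 and Neat1, long RNAs that stay in the nucleus, took 0.406% to 0.649% of the nuclear counts in the high livers (median 0.540%) and 0.198% to 0.365% in the low livers (median 0.281%), without overlap. The difference was 0.224 points (two-sided permutation test over all 54264 arrangements, p = 1.84e-05, the smallest they can give, adjusted p = 5.53e-05 over 6 measures). Genes for cytosolic ribosomal proteins took 1.70% to 2.05% in the high livers and 1.39% to 1.69% in the low livers, again without overlap (0.356 points, permutation adjusted p = 5.53e-05). The 20 most abundant nuclear genes took 19.15% to 20.9% in the high livers and 20.6% to 23.2% in the low livers (-1.55 points, permutation adjusted p = 0.000184). A high liver had 23430 ± 498 nuclear genes with a count (SD, n = 6) and a low liver 22880 ± 290 (SD, n = 15), a difference of 557 (permutation adjusted p = 0.00622).

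Those 4 differences kept their direction within genotypes and within number series. Depth and blood did not pass the test: nuclear counts averaged 21.7 ± 2.25 M in the high livers and 23.6 ± 2.66 M in the low livers (permutation adjusted p = 0.16), and hemoglobin genes took 0.0153% and 0.0146% (permutation adjusted p = 0.684). RNA integrity is not in the labels. The part of nuclear RNA content, depth and RNA quality in the results below was not tested. The first principal component of the nuclear genes, 28.2% of their variance, ranked the 6 high livers 1 to 6 and homozygous sample 1, the liver just under the threshold, 7.

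**Figure D3:**
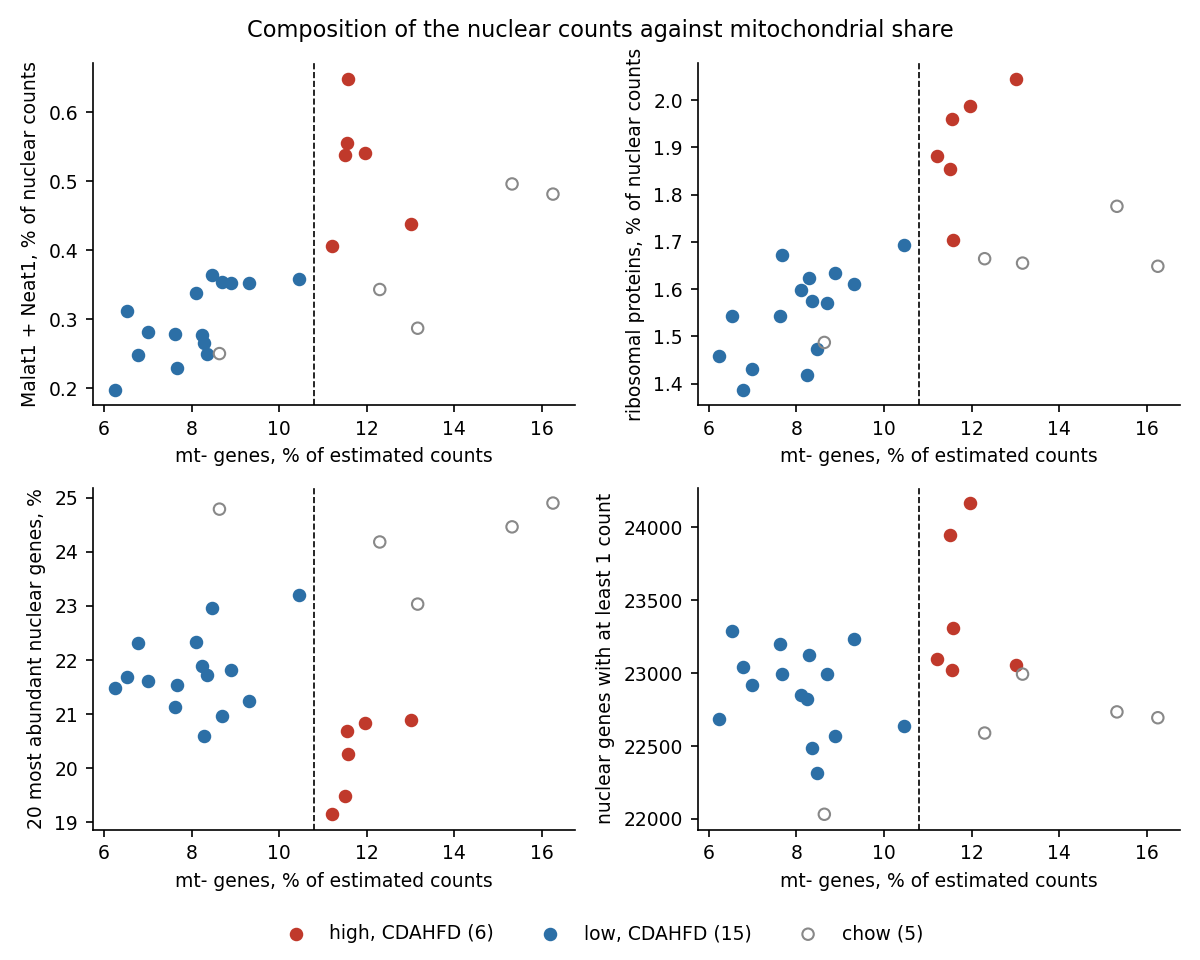
Each library's share of nuclear counts in Malat1 and Neat1, in cytosolic ribosomal protein genes and in the 20 most abundant nuclear genes, and its number of nuclear genes with a count, against its mitochondrial share. Points are libraries (6 high in red, 15 low in blue, 5 chow as open grey circles) and the dashed line is the limit between the classes; the first 2 panels separate the high from the low livers without overlap.

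Mtarc1, listed in the annotation by its older symbol Marc1, followed the genotype labels. It averaged 55.1 ± 11.7 CPM in homozygous livers (SD, n = 8), 182 ± 36.8 CPM in heterozygous livers (SD, n = 7) and 267 ± 48.2 CPM in wildtype livers (SD, n = 6), where CPM from here on is per 1000000 nuclear counts. The 3 high wildtype livers had 213 to 243.3 CPM, all below the 285.6 to 330.2 CPM of the 3 low ones, and the high heterozygous liver had the least of its genotype at 127 CPM. The high homozygous livers, at 45.9 and 61.4 CPM, lay within the 37.7 to 73.6 CPM of the low homozygous ones. High minus low with genotype in the fit was -0.32 ± 0.13 on the log2 scale (SE) for Marc1 (edgeR adjusted p = 0.0651). It passed the threshold without homozygous sample 5 (adjusted p = 0.0296) or homozygous sample 7 (adjusted p = 0.0212), and had an adjusted p of 0.2305 without heterozygous sample 4. Marc2, the gene of the paralogous enzyme Mtarc2, had -0.20 ± 0.08 (adjusted p = 0.0592). It passed the threshold without 1 of 3 low livers (adjusted p 0.0339 to 0.0449), and had an adjusted p of 0.18 without heterozygous sample 4. Cyb5b, the outer membrane cytochrome b5 that hands electrons to both enzymes, was lower in the high livers at -0.75 ± 0.16 (adjusted p = 0.00181).

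Nuclear genes for the respiratory chain and ATP synthase did not follow the mitochondrial mRNAs upward. Of 79 tested, 0 were higher and 16 (20.3%) lower in the high livers with edgeR, against 14.7% lower among all genes, and their median log2 fold change was -0.01 beside 0.01 for all genes. Of the 4179 most abundant genes, however, 33.6% were lower. Neither this list nor the lists below were matched to genes of like level, so the part of level in their shares was not tested. Complex II, the one complex with no subunit from the mitochondrial genome, had 2 of 4 subunits lower and a median of -0.46. ATP synthase had 5 of 17 lower (3 at the fewest with 1 liver left out), complex III 3 of 9, complex I 4 of 36 and complex IV 2 of 13. Without homozygous sample 1, 1 complex I subunit was called higher.

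Sdha, the catalytic flavoprotein of complex II, had 179 to 237 CPM in the high livers (median 209) and 242 to 513 CPM in the low livers (median 390). Atp5b, the catalytic beta subunit of ATP synthase, had 498 to 623 CPM in the high livers (median 561) and 655 to 1255 CPM in the low livers (median 990). Neither gene overlapped between classes, and the log2 fold changes were -0.83 ± 0.13 for Sdha (edgeR adjusted p = 0.000267) and -0.76 ± 0.12 for Atp5b (adjusted p = 0.000238). Atp5a1, the alpha subunit, was lower by -0.64 ± 0.09 and Ndufv1, the NADH-binding subunit of complex I, by -0.44 ± 0.06, both without overlap. Sdhd, a membrane anchor of complex II, was at -0.71 ± 0.10 and Ndufs1, an iron-sulfur subunit of complex I, at -0.55 ± 0.10. Smaller differences passed the test for Uqcrc2 and Cyc1 of complex III (-0.30 ± 0.06 and -0.29 ± 0.07), Cox7a2l and Cox5a of complex IV (-0.36 ± 0.08 and -0.26 ± 0.07) and Atp5f1 of the ATP synthase stalk (-0.34 ± 0.07).

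The promoter of Sdha, the respiratory chain gene with the most negative fold change of the 79, is shown because many genes of this group carry matches to the letters bound by NRF1, a regulator of nuclear genes for mitochondria. The 150 bases before its RefSeq start lie at chr13:74350241-74350390 on the minus strand (GRCm38.p6), and the capitals mark 3 matches to the NRF1 motif, read as GCGCA, any base and GCGC.
Sdha: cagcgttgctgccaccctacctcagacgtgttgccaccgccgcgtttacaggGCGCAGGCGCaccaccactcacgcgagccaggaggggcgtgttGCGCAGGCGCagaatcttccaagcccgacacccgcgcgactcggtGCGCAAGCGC
On either strand of a 300-base promoter, these letters stood in 17 of 65 respiratory chain and ATP synthase genes (26.2%) and in 9.50% of 11721 tested genes with a promoter in the table. Sdhd had 1 match and Atp5b 0; a match is a description of letters, not of binding.

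Enzymes of 2 pathways of the mitochondrial matrix were lower in large part. For fatty acid oxidation and ketone body formation, 16 of 21 genes (76.2%, against 14.7% of all genes) were lower and 0 higher with edgeR, with a median log2 fold change of -0.38. In 9 of the 21 no high liver reached a low one, which held for 1.9% of all genes. Echs1, the enoyl-CoA hydratase, had 119 to 160 CPM in the high livers (median 139) and 177 to 233 CPM in the low livers (median 218), at -0.60 ± 0.08 (edgeR adjusted p = 6.63e-05). Hadh, the next enzyme of the cycle, and Etfdh, which passes its electrons to ubiquinone, were at -0.59 ± 0.08 and -0.73 ± 0.11. All 3 separated the classes without overlap.

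The tricarboxylic acid cycle had 13 of 18 genes (72.2%) lower and 0 higher, with a median of -0.31. Sucla2, a subunit of succinyl-CoA ligase, had 53.7 to 74.9 CPM in the high livers (median 61.6) and 74.0 to 132 CPM in the low livers (median 115), so 1 low liver reached the highest high liver. It was at -0.78 ± 0.11 (edgeR adjusted p = 0.000156). Its partner Suclg1 (-0.51 ± 0.08) and Dld, the dihydrolipoamide dehydrogenase shared by the 2-oxoacid dehydrogenases (-0.56 ± 0.08), did not overlap between classes. Without homozygous sample 7 the counts were 13 lower for fatty acid oxidation and 10 lower for this cycle.

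Genes that replicate, transcribe and mature mitochondrial DNA and RNA had 10 of 39 lower (25.6%, against 14.7% of all genes) and 1 higher (2.56%, against 11.1%), with a median of -0.08. With heterozygous sample 4 left out 7 were lower, and with homozygous sample 3, 4 or 6 left out 3 were higher. Tfam, which packs mitochondrial DNA and starts its transcription, had 31.7 to 41.5 CPM in the high livers (median 35.0) and 38.1 to 46.3 CPM in the low livers (median 43.6), at -0.26 ± 0.06 (edgeR adjusted p = 0.00364). Polrmt, the mitochondrial RNA polymerase, had 26.4 to 31.2 CPM in the high livers and 20.5 to 29.5 CPM in the low livers, and its 0.14 ± 0.07 did not pass (adjusted p = 0.138). Grsf1, an RNA-binding protein of mitochondrial RNA granules, and Elac2, which cuts the 3' ends of tRNAs, were lower at -0.44 ± 0.08 and -0.40 ± 0.10. Of 78 mitochondrial ribosomal proteins 21 were lower (26.9%) and 4 higher (5.13%). Without homozygous sample 7, 12 were lower, and without heterozygous sample 4, 1 was higher. Among the 21 were Mrps12 at -0.57 ± 0.10 and Mrps31 at -0.41 ± 0.07.

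Protein import had 7 of 25 genes lower (28%, against 14.7% of all genes) and 2 higher (8%, against 11.1%). Without homozygous sample 7, 0 were higher. Tomm70a, a receptor for imported carriers, and Pmpcb, the catalytic subunit of the presequence protease, were at -0.38 ± 0.07 and -0.37 ± 0.06, without overlap between classes. Fusion, fission and mitophagy had 6 of 16 lower (37.5%, and 3 genes without heterozygous sample 4) and 0 higher. Among the lower were the fusion GTPases Mfn2 (-0.50 ± 0.09) and Opa1 (-0.42 ± 0.08) and the mitophagy kinase Pink1 (-0.35 ± 0.07). Regulators of biogenesis had 4 of 16 lower (25%, and 1 gene without heterozygous sample 4, 2 without homozygous sample 5 or 7). Ppargc1a, a coactivator of mitochondrial biogenesis, had -0.33 ± 0.15 and did not pass (edgeR adjusted p = 0.11). Nnt, the mitochondrial transhydrogenase, of which C57BL/6J mice lack a part, had 34.1 to 50.5 CPM in the high livers and 22 to 68.5 CPM in the low livers (0.42 ± 0.17, edgeR adjusted p = 0.0805). That adjusted p was 0.0137 without heterozygous sample 7, 0.0487 without homozygous sample 1 and at most 0.1554 with any 1 liver left out.

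The list of mitochondrial proteases, chaperones and stress response genes split. Of 20 tested, 7 were lower (35%, against 14.7% of all genes), all of them proteases or chaperones of the mitochondria. The other 7 called were higher (35%, against 11.1% of all genes). Of those, 6 are known as genes of the integrated stress response, in which the factor Atf4 is translated when protein synthesis stalls. With heterozygous sample 4 left out, 4 were higher. The chaperones Hspd1 and Trap1 were lower without overlap, at -0.57 ± 0.10 and -0.38 ± 0.07.

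Fgf21, a hormone that stressed liver secretes, had 27.5 to 111 CPM in the high livers (median 40.03) and 3.31 to 44.5 CPM in the low livers (median 12.5). 2 low livers reached the lowest high liver, and Fgf21 was higher at 1.86 ± 0.42 (edgeR adjusted p = 0.00404). Ddit3, which encodes the factor CHOP, had 21.1 to 53.3 CPM in the high livers (median 24.6) and 9.91 to 23.9 CPM in the low livers (median 13.7), at 1.14 ± 0.17 (adjusted p = 0.000223). Trib3, a pseudokinase induced by Atf4 and CHOP, had 36.7 to 61.0 CPM in the high livers (median 51.6) and 11.1 to 38.9 CPM in the low livers (median 22.97), at 1.22 ± 0.20 (adjusted p = 0.000481). In Ddit3 and Trib3 1 of the 15 low livers reached the high range. Gdf15, a secreted stress signal, was at 1.11 ± 0.31 (adjusted p = 0.0141, and 0.0666 without homozygous sample 4). Nupr1, a small stress-induced chromatin protein, had 23.5 to 48.2 CPM in the high livers (median 41.0) and 2.69 to 23.9 CPM in the low livers (median 11.6), at 1.83 ± 0.30 (adjusted p = 0.000466).

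The mRNAs of the factors themselves did not pass the test. Atf4 had 114 to 215 CPM in the high livers and 96.6 to 184 CPM in the low livers, at 0.33 ± 0.13 (edgeR adjusted p = 0.0634, and 0.0374 to 0.0452 in 5 fits with 1 liver left out). Atf5, a related factor tied to mitochondrial stress, was at 0.43 ± 0.19 (adjusted p = 0.0926, and 0.0321 without homozygous sample 5). Atf3, a factor induced by Atf4, was higher at 1.20 ± 0.26 (adjusted p = 0.00254). It had 12.5 to 34.9 CPM in the high livers and 4.24 to 21.5 CPM in the low livers, and 7 low livers reached the lowest high liver. Its log2 fold change was 0.54 within wildtype and 1.87 within homozygous livers, a difference that was not called (edgeR adjusted p = 0.981).

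The promoters of Fgf21, Nupr1 and Atf3 are printed because these genes were higher and each holds the letters TGATGNAAN. These letters are the amino acid response element read by Atf4 and C/EBP factors. The 3 promoters were picked for both traits, so they give no share of the higher genes with a match. Each is the 150 bases before the RefSeq start on the minus strand of GRCm38.p6, at chr7:45615491-45615640, chr7:126625471-126625620 and chr1:191183334-191183483 in that order. Capitals mark the match, which in all 3 lies on the strand opposite to the one printed.
Fgf21: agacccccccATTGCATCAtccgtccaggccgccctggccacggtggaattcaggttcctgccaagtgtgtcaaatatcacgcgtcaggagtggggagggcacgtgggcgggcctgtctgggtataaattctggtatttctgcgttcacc
Nupr1: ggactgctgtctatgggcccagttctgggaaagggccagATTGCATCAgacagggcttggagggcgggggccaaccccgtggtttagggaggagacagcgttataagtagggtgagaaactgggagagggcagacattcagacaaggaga
Atf3: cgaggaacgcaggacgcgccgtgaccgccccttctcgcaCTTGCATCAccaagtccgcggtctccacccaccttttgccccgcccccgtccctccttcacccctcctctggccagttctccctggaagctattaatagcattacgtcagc
In the full 300-base promoters of the table, 3 of 18 genes of the stress list and 2.29% of 11721 tested genes held the letters on either strand. That list is not the set printed: it lacks Nupr1 and holds Trib3, which also had 1 match. Atf3 belongs to the list of immediate early genes, in which 1 of 15 (6.67%) held the letters. Ddit3 and Gdf15 held none in this window, from which nothing follows about the factor.

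**Figure D4:**
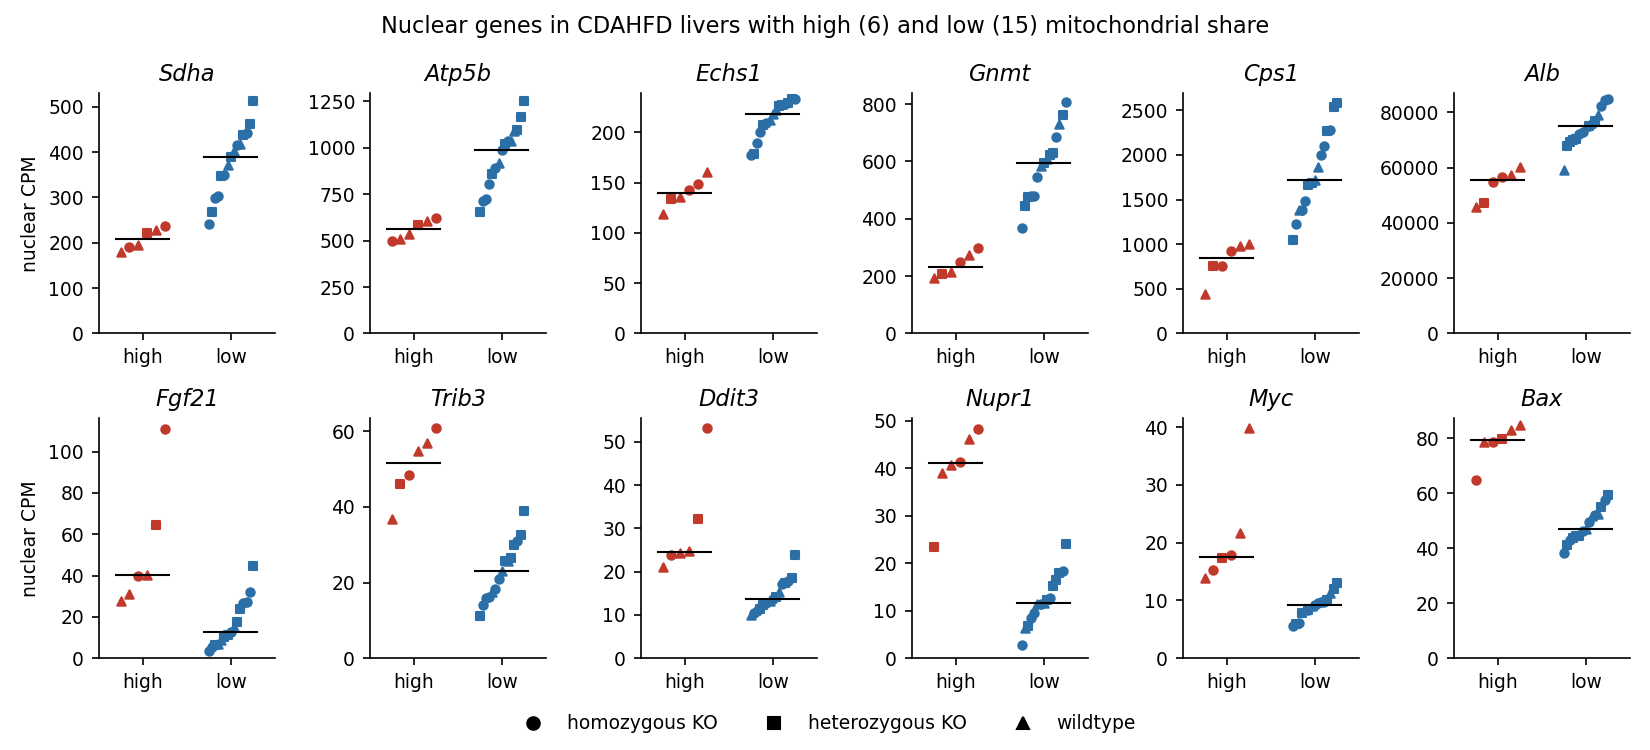
CPM of nuclear counts of 12 genes in the 6 high livers (red, left) and the 15 low livers (blue, right). Points are libraries, shapes are genotypes and black lines are medians. Sdha, Atp5b, Echs1, Gnmt and Cps1 lie lower and Myc and Bax higher in the high livers without overlap. In Alb, Fgf21, Trib3, Ddit3 and Nupr1, 1 or 2 low livers reach the range of the high livers. The highest low liver for Fgf21, at 44.5 CPM, stands above the median of the high livers, 40.03 CPM.

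Enzymes of hepatocyte metabolism were lower across several lists. Gnmt, the glycine N-methyltransferase that uses up S-adenosylmethionine, had 194 to 297 CPM in the high livers (median 232) and 366 to 807 CPM in the low livers (median 595). It was lower at -1.31 ± 0.16 (edgeR adjusted p = 6.48e-05) with no overlap, and it is among the 10 largest falls. Dpys, the dihydropyrimidinase of pyrimidine breakdown, had the lowest p of all genes, with 94.0 to 123 CPM in the high livers and 167 to 264.5 CPM in the low livers (-0.92 ± 0.09, adjusted p = 1.04e-05). Dpys and the next 3 genes were chosen after their values were seen. Sardh, Shmt1 and Mthfd1, enzymes of sarcosine, serine and folate one-carbon metabolism, were lower at -0.80 ± 0.10, -0.56 ± 0.07 and -0.66 ± 0.09, all without overlap.

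Drug metabolism had 9 of 14 genes lower (64.3%) and 0 higher, with a median of -0.68 and 5 genes without overlap. Cyp2c29 had 97.2 to 164 CPM in the high livers (median 133) and 187 to 453 CPM in the low livers (median 332), at -1.24 ± 0.20 (edgeR adjusted p = 0.000315). Ces1d, a carboxylesterase, and Ugt1a1, which conjugates bilirubin, were at -1.16 ± 0.17 and -0.67 ± 0.09. Cyp2c29 and Cyp2c50 (-0.84 ± 0.13) belong to a family of near-identical genes among which reads can be split. Bile acid synthesis and transport had 9 of 18 genes lower (50%, against 14.7% of all genes) and 0 higher. Slc27a5, the bile acid CoA ligase, was at -0.81 ± 0.10, the uptake transporter Slc10a1 at -0.83 ± 0.12 and the reductase Akr1d1 at -0.62 ± 0.12.

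Among genes that mark the 2 ends of the liver lobule, 7 of 15 periportal genes were lower (46.7%, against 14.7% of all genes) and 0 higher, with a median of -0.56. Cps1, the first enzyme of the urea cycle, had 445 to 1000 CPM in the high livers (median 842) and 1046 to 2582 CPM in the low livers (median 1717), at -1.11 ± 0.20 (edgeR adjusted p = 0.000754). Ass1 of the same cycle and Cyp2f2 were at -0.64 ± 0.13 and -0.62 ± 0.12. Of the pericentral genes 6 of 16 (37.5%) were lower (3 without homozygous sample 7) and 0 higher, among them Cyp2e1 at -0.65 ± 0.11 and Gulo, the last enzyme of vitamin C synthesis, at -0.38 ± 0.08.

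Of 20 secreted hepatocyte proteins 10 were lower (50%, against 14.7% of all genes) and 0 higher, with a median of -0.28. Alb had 45760 to 60180 CPM in the high livers (median 55670) and 59160 to 84870 CPM in the low livers (median 75040), at -0.48 ± 0.08 (edgeR adjusted p = 0.000443). Fga, a fibrinogen chain, and Apoh were at -0.84 ± 0.14 and -0.48 ± 0.09, and Serpina1b, of a cluster of near-identical genes, at -0.52 ± 0.09. Acute phase proteins had 6 of 17 lower (35.3%) and 0 higher, among them Crp (-0.85 ± 0.13) and Itih4 (-0.73 ± 0.13). The count was 3 lower without heterozygous sample 4, homozygous sample 7 or any of wildtype samples 1, 3 and 5.

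Cholesterol synthesis had 13 of 24 genes lower (54.2%, against 14.7% of all genes) and 0 higher, with a median of -0.49. Hsd17b7 of this pathway was at -0.70 ± 0.13 (edgeR adjusted p = 0.00063). This count rested on few livers: 5 genes were lower without heterozygous sample 4 and 8 without wildtype sample 1, 2 or 4. Fatty acid synthesis had 5 of 18 lower (27.8%) and 0 higher. Among the lower were Acss2 (-0.73 ± 0.15) and the citrate carrier Slc25a1 (-0.43 ± 0.09). Of 18 lipid droplet and triglyceride genes 3 were lower (16.7%, near the 14.7% of all genes), among them Dgat2, which makes triglyceride (-0.63 ± 0.09). 1 was higher (5.56%, against 11.1% of all genes), Cidec of the droplet coat (1.09 ± 0.33, edgeR adjusted p = 0.0205, and 0.0578 without heterozygous sample 4). PPAR-alpha targets had 2 of 18 higher (11.1%) and 2 lower (11.1%), near the 11.1% and 14.7% of all genes, and 0 of each with edgeR without heterozygous sample 4.

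**Figure D5:**
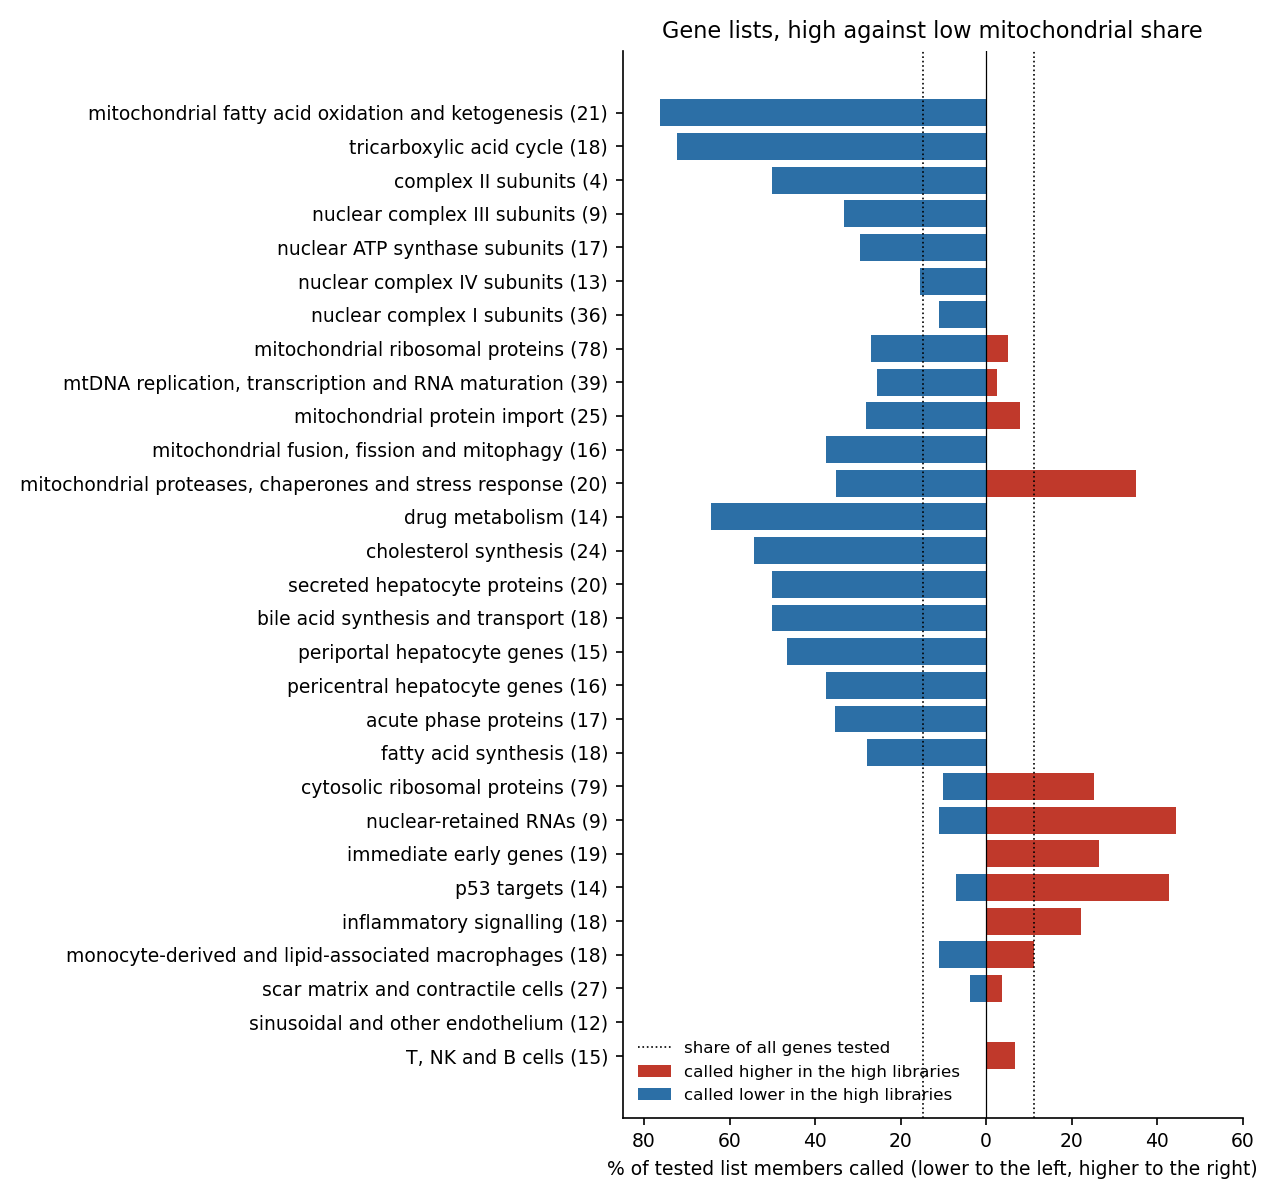
Percent of tested members of 29 gene lists called lower (blue, to the left) or higher (red, to the right) in the high livers, with the number tested in brackets. Dotted lines mark the share of all genes tested (14.7% lower, 11.1% higher); fatty acid oxidation (76.2% lower) and the tricarboxylic acid cycle (72.2% lower) lie farthest left, and nuclear-retained RNAs (44.4% higher) farthest right.

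Of 79 cytosolic ribosomal protein genes 20 were higher (25.3%, against 11.1% of all genes) and 8 lower, with a median of 0.12 and 51 not called; without homozygous sample 1, 32 were higher, and without heterozygous sample 4 or homozygous sample 7, 4 were lower. Rps12 had 224 to 297 CPM in the high livers (median 258) and 148 to 202 CPM in the low livers (median 180), at 0.48 ± 0.07 (edgeR adjusted p = 0.00013) with no overlap. Rpl12 was at 0.55 ± 0.09, while Rpl10 was lower at -0.32 ± 0.06, also with no overlap. Many ribosomal protein genes have near-identical pseudogenes that can take their reads. Of 9 nuclear-retained RNAs 4 were higher and 1 lower, and 4 were not called. Neat1, the scaffold of paraspeckles, had 2061 to 3228 CPM in the high livers (median 2884) and 734 to 2573 CPM in the low livers (median 1581), at 0.79 ± 0.17 (adjusted p = 0.00209). Malat1 was at 0.47 ± 0.12 (adjusted p = 0.00853, and 0.0505 without homozygous sample 7) and the imprinted antisense RNA Kcnq1ot1 at 0.90 ± 0.15. 2900097C17Rik was lower at -0.36 ± 0.10 (adjusted p = 0.0147, and 0.059 without heterozygous sample 4).

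Gene classes differed in the same sense. Among 467 TEC entries, transcripts not yet verified experimentally, 26.1% were higher and 3.64% lower. Pseudogenes had 25.7% higher and 4.52% lower of 487, long non-coding genes 13.03% higher and 3.9% lower of 1205, and protein-coding genes 9.97% higher and 16.7% lower of 14099. Of the 4179 most abundant genes 33.6% were lower and 9.72% higher. In 4 equal bins by transcript length the share lower ran from 12.25% to 17.95%, and in 4 bins by GC content from 11.4% to 17.4%.

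Among genes of injury and early response, 5 of 19 immediate early genes were higher (26.3%, against 11.1% of all genes) and 0 lower. Myc, a growth-promoting factor, had 13.9 to 39.8 CPM in the high livers (median 17.6) and 5.51 to 12.9 CPM in the low livers (median 9.21), at 1.13 ± 0.19 (edgeR adjusted p = 0.000524) with no overlap, and Klf6 was at 0.64 ± 0.15. Of 14 p53 targets 6 were higher (42.9%) and 1 lower, and 3 were higher without homozygous sample 4. Bax, which opens the outer mitochondrial membrane in apoptosis, had 64.8 to 84.9 CPM in the high livers (median 79.2) and 38.4 to 59.5 CPM in the low livers (median 46.8), at 0.67 ± 0.08 (adjusted p = 6.48e-05) with no overlap. Mdm2 and the nuclease Aen were at 0.40 ± 0.07 and 0.30 ± 0.07. Of 18 inflammatory signalling genes 4 were higher (22.2%) and 0 lower (1 without heterozygous sample 4, 2 without homozygous sample 7 or wildtype sample 2 or 6), with the NF-kB subunit Relb at 0.70 ± 0.15. The interferon response had 2 of 18 higher, the same 11.1% as all genes, among them Mx1 (0.69 ± 0.15), and 1 lower. Its higher count was 1 without wildtype sample 2 or 6, heterozygous sample 4 or homozygous sample 7, and its lower call was lost without wildtype sample 1, 2, 3, 4 or 5, heterozygous sample 4 or homozygous sample 5.

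HIF targets had 7 of 16 lower (43.8%, against 14.7% of all genes) and 1 higher, the last lost without heterozygous sample 4, with Pgk1 and Ldha of glycolysis at -0.47 ± 0.09 and -0.50 ± 0.10. The next lists lay near the shares of all genes, 14.7% lower and 11.1% higher. The circadian clock list had 2 of 18 lower (11.1%), including the output factor Hlf at -0.81 ± 0.14, and 1 without heterozygous sample 4. Endoplasmic reticulum stress had 2 of 16 lower (12.5%), including Edem1 at -0.37 ± 0.07, and 1 higher; with any 1 of 12 livers left out, 1 was lower. Antioxidant enzymes had 3 of 18 lower (16.7%) and 0 higher, heat shock genes 1 of 12 lower (8.33%) and 0 higher, and histones 1 of 8 higher (12.5%) and 0 lower. The cell division list had 2 of 18 higher (11.1%), and 0 without heterozygous sample 4.

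In bulk tissue, fewer cells of a type and less RNA per cell cannot be told apart. Monocyte-derived and lipid-associated macrophage genes had 2 of 18 higher (11.1%), including Cd9 (0.58 ± 0.13), and 2 lower (11.1%), including Ctsb (-0.30 ± 0.08), near the 11.1% and 14.7% of all genes, and 5 were higher without wildtype sample 3. Their summed level was 1448 to 2276 CPM in the high livers and 1524 to 2981 CPM in the low livers. Resident Kupffer cell genes had 1 of 10 lower (10%, against 14.7% of all genes), at 367 to 629 CPM in the high livers and 416 to 792 CPM in the low livers. Matrix and contractile genes had 1 of 27 higher (3.70%) and 1 lower (3.70%), Fn1 at -0.62 ± 0.12, both below the shares of all genes. Without wildtype sample 3, 8 were higher.

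Of the endothelial list 0 of 12 were called with edgeR, against 25.7% of all genes. Its sum was 257 to 424 CPM in the high livers and 203 to 456 CPM in the low livers. Stellate cells had 1 of 12 higher (8.33%, against 11.1% of all genes) and bile duct 1 of 7 (14.3%). T, NK and B cells had 1 of 15 higher (6.67%) and neutrophils 1 of 5 (20%). Genes of tissues outside the liver were few: exocrine pancreas had 1 of 10 tested, at 0.478 to 1.65 CPM in the high livers and 0.46 to 1.67 CPM in the low livers, and kidney 0 of 6 tested. Skeletal muscle had 3 of 9 tested, at 2.04 to 7.55 CPM in the high livers and 1.86 to 3.9 CPM in the low livers. Of these 3, 1 was called higher (33.3%, against 11.1% of all genes). Adipocyte genes had 2 of 7 tested, 1 called higher (50% of 2), at 28.9 to 53.3 CPM in the high livers and 12.3 to 33.8 CPM in the low livers. The gene called was Cidec, which is also the higher gene of the lipid droplet list above. Each single call in the stellate, bile duct, lymphocyte, neutrophil, Kupffer, muscle and adipocyte lists was lost when 1 or another liver was left out. The part of these cells in the results was not tested.

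Apart from Gnmt, Fgf21 and Nupr1, the 10 largest rises and the 10 largest falls were mostly predicted genes, pseudogenes and second copies of a symbol, in which the counting can move reads between near-identical transcripts. The rises held Gm28959 (3.56 ± 0.85), Gm12744 (3.21 ± 0.49), Gm8325 (1.81 ± 0.48), Gm15832 (1.61 ± 0.30), Gm7666 (2.00 ± 0.54, edgeR adjusted p = 0.0122, and 0.0679 without heterozygous sample 4), Pagr1a (2.33 ± 0.58, adjusted p = 0.00684, and 0.0836 without it), ENSMUSG00000118491 (3.30 ± 0.73) and the extra Chtf8 entry ENSMUSG00000117748 (2.73 ± 0.77). Gm15832 had 15.8 to 26.2 CPM in the high livers and 3.24 to 13.96 CPM in the low livers, without overlap. Not every high liver shared each rise. Gm28959 was at 0 CPM in homozygous sample 4, 0.294 CPM in heterozygous sample 4 and 5.36 to 11.4 CPM in the other high livers. Pagr1a and the extra Chtf8 entry were at 0.047 and 0.094 CPM in wildtype sample 5. The falls held P2ry4, a nucleotide receptor (-1.57 ± 0.26), Gm29920 (-2.04 ± 0.35, without overlap), Gm5831 (-1.42 ± 0.25), Gm49342 (-2.44 ± 0.67), Morf4l1-ps1 (-4.82 ± 1.10), ENSMUSG00000121087 (-1.35 ± 0.40) and Gm7336 (-1.53 ± 0.47, adjusted p = 0.0222, and 0.0771 without heterozygous sample 4). The extra Gcat entry ENSMUSG00000116378 and Gm20458 were at 0 in all 6 high livers and had medians of 8.98 and 2.51 CPM in the low livers, where some were also at 0.

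The 5 chow livers took no part in choosing the members, and their mitochondrial share ran from 8.64% to 16.3%. Across them, 91.7% of the 1854 genes higher in the high CDAHFD livers had a positive slope of log2 CPM on the mitochondrial share, against 54.0% of all 16717 genes, and 93.3% of the 2450 lower genes had a negative slope. With 5 libraries that share this axis of composition, these shares are a description. Sdha fell by 0.17 and Atp5b by 0.14 log2 units per percentage point of share in chow livers. Fgf21, Trib3 and Nupr1 did not follow: their slopes in chow were -0.15, -0.15 and -0.003, while Ddit3 and Myc had 0.08 and 0.07.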

How the data were processed

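RNA-seq of whole mouse liver was used. The authors deposited estimated counts per Ensembl gene for 26 libraries; cutadapt 3.5 and Salmon 1.4.0 and the builds GRCm39 and mm39 stand in the submitters' processing notes. Transcript-to-gene summing and strand use are not stated there or in the labels. Every column was matched to a sample (0 unused columns). Symbols and gene types came from GENCODE M21 (GRCm38) by ID, matching 92.5% of 55642 IDs and at least 97.7% of each library's counts.

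After rounding, edgeR 4.0.16 (R 4.3.3) was run (filterByExpr by genotype, TMM without mt- genes, robust quasi-likelihood fits) on the 21 CDAHFD libraries with genotype as covariate. Common dispersion gave a biological coefficient of variation of 19.1%. CPM and log2 fold changes exclude mt- counts except where stated; each SE was derived from the fold change and its F statistic. Library measures were compared by two-sided permutation of samples. The planned permutation tests of the mitochondrial share by genotype and number series are not given, since that share chose the classes. On simulated counts for this contrast (16528 genes), the test recovered 55.2% of changes of 1.5-fold, 86.6% at 2-fold and 97% at 4-fold. No pair of libraries looked like a duplicate (chi-square per degree of freedom at least 16.9 over 74 pairs).

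Named genes were the mt- genes at 1 CPM or more, Mtarc1, Mtarc2, Malat1, Neat1, Nnt, the 10 largest rises and falls among called genes at a mean of 1 CPM or more, and up to 4 called members per list with the lowest p (or 1 where none was called); of these the text leaves some out. Atf4, Atf5, Gdf15, Polrmt and Ppargc1a and those marked in the text were chosen after their values were seen. The members, the rule and the gene lists were chosen with earlier results of these data known. Promoters are from the RefSeq table of GRCm38.p6. Alternatives were other class limits, scalings, filters, tools and subsets of libraries.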

Additional observations from a re-analysis of the deposited data

Results flagged for a closer look

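In 138 groups of 4 to 10 libraries tested for a single value far from the others, 9 were flagged; chance flags about 1 in 20 groups. 2 concern heterozygous sample 4, the one high liver of its genotype: its 20 most abundant nuclear genes took 19.48% of nuclear counts and its cytosolic ribosomal protein genes 1.853%, each apart from the other heterozygous livers. Homozygous sample 7, a high liver, had Malat1 and Neat1 at 0.6489% of nuclear counts, apart from the other homozygous livers. Wildtype sample 2, a high liver, had 24170 nuclear genes with a count, the most among wildtype CDAHFD livers.

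The other flags lie within the 6 high livers, on log2(CPM + 1). Nupr1 was lowest in heterozygous sample 4 at 4.612, and Bax lowest in homozygous sample 7 at 6.039. The urea cycle genes Cps1 at 8.802 and Ass1 at 10.13 were lowest in wildtype sample 2. The extra Chtf8 entry ENSMUSG00000117748 was near 0 in wildtype sample 5, at 0.1296.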

How the results depend on the processing

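With the 4304 called genes (1854 higher, 2450 lower) as the base, scalings, tools, filters, class limits and covariates gave 3337 to 6021 calls (the lowest with the replicate block below): 6021 with the share as a continuous value, 4136 and 4767 with the 5 or 7 highest libraries as the high class, 5166 without genotype, 4376 with the number series added, 4301 with either mt- genes kept in the scaling or RLE size factors, 3522 with no low count filter, 4689 with DESeq2 and 4450 with limma voom. Subsets of libraries gave fewer: 1473 above 10000 (674 higher, 799 lower), 1 below 10000 (1 higher, 0 lower), 1748 in wildtype (863 higher, 885 lower) and 0 in homozygous livers (0 higher, 0 lower); these hold fewer samples. The last 2 were added after seeing the data. Leaving out 1 library gave 2784 to 4735 calls (1110 to 2091 higher, 1674 to 2644 lower), of which 2683 to 4261 were among the 4304. Ppargc1a, not called, turned to 0.0445 below 10000. Sample numbers did not pair the livers (19 same-numbered pairs, mean correlation 0.0281, 10 over 0.1); a replicate block gave 3337 calls (1357 higher, 1980 lower). Counting only mt- mRNAs or leaving out mt- rRNAs gave a mean share of 10.92% in the high livers. With 1 library left out, the difference in nuclear counts ran from -2.42 to -1.43 M, with permutation p from 0.0465 to 0.289 (past the threshold, at 0.0465, without homozygous sample 8). The other library measures kept their direction and side of the threshold.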
